A study of Saccharomyces cerevisiae with 40 samples.

Results

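The genes described here are 10 regulators of lipid and respiratory metabolism in Saccharomyces cerevisiae: ADR1, OAF1, PIP2, OAF3, HAP1, HAP4, MGA2, SPT23, UPC2, and ECM22. They were taken by name from the gene tables of a ChIP-exo study of 5 transcription factors (TFs), which name 7125 genes. ChIP-exo trims immunoprecipitated DNA with an exonuclease up to the cross-linked protein, so that binding events are placed to within a few bases. The TFs were Ino2, Ino4, Hap1, Oaf1, and Pip2, each carrying a C-terminal CBP-ProtA tag for tandem affinity purification in its own derivative of the laboratory strain CEN.PK 113-5D. Every strain was grown in chemostats under nitrogen limitation with 6% glucose (N-lim) and under ethanol limitation with 0.5% ethanol (Et-lim). It was also grown under limitation of both glucose and oxygen with 1% glucose (Ox,Glu-lim) and under glucose limitation with 0.75% glucose (Glu-lim). In all, 40 samples were collected, 2 of each strain in each condition. N-lim and Ox,Glu-lim cultures were fermentative, and Et-lim and Glu-lim cultures were respiratory. The Ox,Glu-lim medium also held Tween 80, an oleic acid ester, and ergosterol, and for this medium the glucose level is that of the labels, whereas the methods of the study give the same level as for Glu-lim. Each strain was tagged in 1 gene only, so that HAP1, OAF1, and PIP2 were themselves the tagged genes in 1 strain each.

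Lipid metabolism and respiration in yeast are switched by small sets of DNA-binding regulators that read the carbon source, oxygen, heme, sterols, and fatty acids. Ino2 and Ino4 are basic helix-loop-helix partners that bind the upstream activating sequence of phospholipid genes. Hap1 is a zinc cluster activator that responds to heme, and Oaf1 and Pip2 are zinc cluster partners that bind oleate response elements in front of peroxisomal β-oxidation genes. The question asked of the tables was which of these 5 factors were placed on the promoters of the regulators themselves.

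The tables give, for each gene, TF, and condition, the highest event within 1200 bp as log2 of signal over noise, log2(S/N), where the noise level is a mean over the sample. Events were kept by the authors only above a log2(S/N) of 1, an S/N ratio of 2, and a gene without such an event is described here as not listed. This does not show that nothing was bound, since weaker events were not kept. The tables hold 1 value for the duplicates of each TF and condition. No spread between samples, error, or test can be given for it, and the depth of the libraries is unknown. A difference between values is therefore a description of these tables.

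Of the 10 genes, 8 were listed for at least 1 TF, against 19.2% of all genes of the tables. The genes were chosen with earlier results of these data known, so that their counts are a description. OAF1 and OAF3 were the exceptions and were listed for no TF in any condition. Hap1 was listed on 5 of the genes, against 6.65% of all genes, and Ino2 on 5, against 11.7%. Oaf1 was listed on 4, against 6.34% of all genes. Ino4 and Pip2 were listed on 2 each, against 9.46% of all genes for Ino4 and 3.3% for Pip2. With entries upstream of an annotated start only, Pip2 was listed on 2 members, against 1.78% of all genes. The 37 entries of the regulators, 1 for each TF and condition with a listed event, were spread unevenly, with 12 for ADR1, 8 for HAP4, 5 each for HAP1 and UPC2, and 7 for the other members together. ADR1 was listed for all 5 TFs, as were 0.491% of all genes, and 3 members were listed for at least 3 TFs, against 4.42% of all genes. The map of log2(S/N) values shows ADR1 and HAP4 as the most widely listed members.

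**Figure D1:**
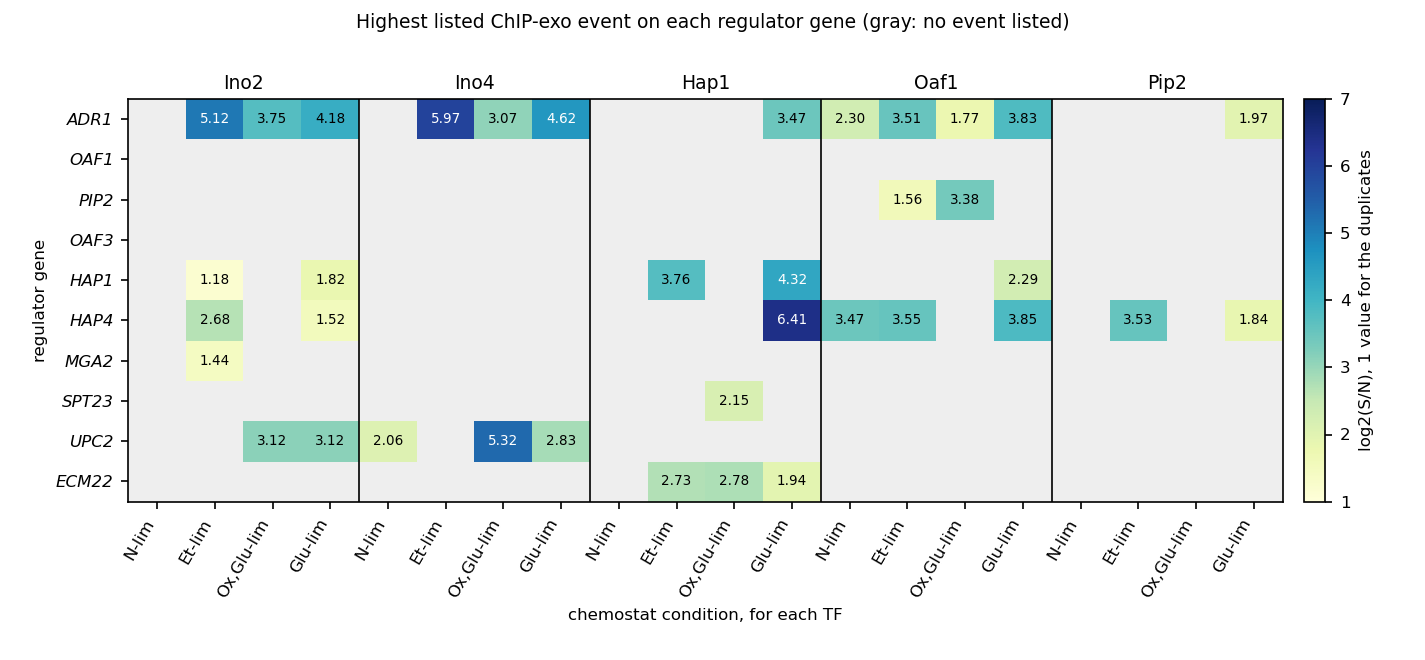
log2(S/N) of the highest listed event for each of the 10 regulator genes (vertical axis) in the 4 conditions of each TF (horizontal axis), with gray where no event was listed. ADR1 has 12 filled cells and HAP4 has 8, and OAF1 and OAF3 have none.

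ADR1 encodes the zinc finger activator of genes for ethanol, glycerol, and fatty acid use, which works when glucose is scarce. It lies on chromosome IV at 895035 to 899006, on the plus strand of the R64 reference. Its events fell into 6 places between 706 and 998 bp upstream of the start, where events within 20 bp of the next are counted as 1 place. Of the 12 events, 8 lay inside YDR215C, an open reading frame annotated on the opposite strand. The stretches printed for ADR1 hold 10 of its 12 events, all but that of Ino4 under Et-lim and that of Oaf1 under Glu-lim. All stretches are the plus strand of R64, 5′ to 3′, and capitals mark the k-mers that the authors' event caller assigned to the events.
ADR1, Ino2 and Ino4, chrIV:894263-894341: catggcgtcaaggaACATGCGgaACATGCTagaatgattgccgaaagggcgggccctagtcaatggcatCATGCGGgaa
ADR1, Hap1, chrIV:894122-894162: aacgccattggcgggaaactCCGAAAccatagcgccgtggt
ADR1, Oaf1 and Pip2, chrIV:894017-894058: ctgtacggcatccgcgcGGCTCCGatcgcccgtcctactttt

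Ino2 on ADR1 had log2(S/N) of 5.12 under Et-lim, 3.75 under Ox,Glu-lim, and 4.18 under Glu-lim and was not listed under N-lim. Ino4 on ADR1 had 5.97 under Et-lim, 3.07 under Ox,Glu-lim, and 4.62 under Glu-lim and was likewise not listed under N-lim. Both factors were thus highest under Et-lim and lowest, where listed, under Ox,Glu-lim. The Ino2 event under Et-lim ranked 67 of 725 listed genes. The Ino4 event ranked 44 of 178 under Et-lim and 95 of 535 under Glu-lim. The median of all genes listed for Ino4 was also higher under Et-lim, 4.68 against 2.50 under Glu-lim. Under Ox,Glu-lim the Ino2 and Ino4 events lay 1 bp apart, at 751 and 752 bp upstream. They lay 54 bp apart under Glu-lim and 99 bp apart under Et-lim, where the Ino4 event, the strongest of its 3, had no k-mer. Oaf1 was listed on ADR1 in all 4 conditions, with 2.30 under N-lim, 3.51 under Et-lim, 1.77 under Ox,Glu-lim, and 3.83 under Glu-lim. ADR1 was the only member on which a TF was listed in all 4 conditions. The Oaf1 event under Glu-lim lay at 829 bp and those of the other conditions at 995 to 998 bp. Hap1 had 3.47 and Pip2 1.97 on ADR1, both under Glu-lim only. The Pip2 event lay at 998 bp, the place of Oaf1 in the other conditions, and was also assigned to AHA1, the gene of an Hsp90 cochaperone, 111 bp away. The nearest gene start that this event lay upstream of was that of ADR1, not that of AHA1.

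OAF1, PIP2, and OAF3 encode zinc cluster factors of the oleate response. Oaf1 and Pip2 are paralogs that act as a heterodimer, and Oaf1 is the subunit that binds fatty acids. PIP2, on chromosome XV at 1020222 to 1023212 on the minus strand, was listed for Oaf1 only. Its log2(S/N) was 1.56 under Et-lim, 135 bp upstream of the start, and 3.38 under Ox,Glu-lim, 186 bp upstream. Of all 37 entries, these were the events nearest to the start of the member itself. The stretch over both events is printed because a match to the Oaf1 motif CGGNNNTAA, searched on both strands, lies between them at 148 to 156 bp upstream. Capitals mark the k-mer of the Et-lim event and then this match, which reads on the minus strand. CGGNNNTAA occurred in the 1200 bp in front of 29.7% of 6002 genes.
PIP2, Oaf1, chrXV:1023335-1023410: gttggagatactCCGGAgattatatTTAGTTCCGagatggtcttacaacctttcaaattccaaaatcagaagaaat

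Pip2 was not listed on PIP2 or OAF1, and Oaf1 was not listed on OAF1. Of the 5 tagged factors, 3 were listed on their own genes in 2 conditions each (Ino2, Ino4, and Hap1), and Oaf1 and Pip2 in none. The 1200 bp in front of OAF1 held the long Hap1 motif, a CCG with TA after 1 further base and another CCG after 3 more, at 550 to 561 bp upstream of the start and, overlapping it, CGGNNNTAA at 553 to 561 bp. The long Hap1 motif, searched on both strands, occurred in 1.27% of promoters of this length, and OAF1 was the only member that held it. Both matches lie within FLC2, the neighboring gene that ends 313 bp before the start of OAF1. A match of letters is no binding site, and no event was listed there.

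HAP1 encodes the heme-responsive activator that is itself among the tagged factors. It lies on chromosome XII at 646415 to 650923 on the plus strand. Hap1 on HAP1 had log2(S/N) of 3.76 under Et-lim and 4.32 under Glu-lim and was listed in neither fermentative condition. Both events were thus in respiratory cultures, 391 bp upstream under Et-lim and 364 bp upstream under Glu-lim. The start of YLR255C, an open reading frame on the opposite strand, was nearer to them, at 71 bp for Et-lim and 98 bp for Glu-lim. Ino2 had 1.18 under Et-lim and 1.82 under Glu-lim, both below the medians of 2.34 and 2.22 of all genes listed for it. The 1.18 under Et-lim was the lowest value of any member, at rank 672 of 725. Oaf1 had 2.29 on HAP1 under Glu-lim, 464 bp upstream and 2 bp from the Ino2 event under Et-lim. The Ino2 and Oaf1 events lay inside YLR255C, which lies between HAP1 and NDL1, and all 5 entries were also assigned to NDL1, 891 to 1079 bp away. The stretch printed for HAP1 covers both Hap1 events, and its second set of capitals, TATCGG, is the Hap1 motif CCGATA on the minus strand.
HAP1, Hap1, chrXII:646004-646071: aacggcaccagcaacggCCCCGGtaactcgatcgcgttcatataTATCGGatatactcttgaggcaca

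HAP4 encodes the activating subunit of the CCAAT-binding complex, which drives genes of the respiratory chain and is the subunit made in response to the carbon source. It lies on chromosome XI at 232227 to 233891 on the plus strand, and the next annotated gene upstream, KTI12, is 2346 bp away. No TF was listed on HAP4 under Ox,Glu-lim. Hap1 on HAP4 was listed under Glu-lim only, with log2(S/N) of 6.41, the highest value of any member and rank 18 of the 405 genes listed there. The event lay 918 bp upstream and had no k-mer. Oaf1 had 3.47 under N-lim, 3.55 under Et-lim, and 3.85 under Glu-lim. These values stood close together, N-lim minus Glu-lim being −0.38 on the log2 scale, while the events lay at 660, 829, and 642 bp upstream. Pip2 had 3.53 under Et-lim and 1.84 under Glu-lim, at 764 and 1009 bp. Ino2 had 2.68 under Et-lim and 1.52 under Glu-lim, both at 679 bp, and Ino4 was not listed. The stretches of HAP4 are printed because events of Ino2 and Oaf1 stand close together there and because the strongest event of any member, that of Hap1, lies in sequence with no capitals.
HAP4, Ino2 and Oaf1, chrXI:231528-231605: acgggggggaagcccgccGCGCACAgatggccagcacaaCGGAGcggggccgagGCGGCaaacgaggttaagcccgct
HAP4, Pip2, chrXI:231443-231483: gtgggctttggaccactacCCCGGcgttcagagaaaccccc
HAP4, Hap1, chrXI:231289-231329: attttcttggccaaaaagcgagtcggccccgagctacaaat

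MGA2 and SPT23 encode paralogous activators that are held in the endoplasmic reticulum membrane, released by proteasomal processing, and needed for transcription of OLE1, the gene of the fatty acid desaturase. Each had a single entry. Ino2 had log2(S/N) of 1.44 on MGA2 under Et-lim, 424 bp upstream, rank 575 of 725. The start of DAL3, an allantoin-use gene on the opposite strand, was only 83 bp from this event, while the table assigned the event to MGA2 and to DAL7, 1022 bp away. Hap1 had 2.15 on SPT23 under Ox,Glu-lim, 208 bp upstream, rank 194 of 250, in a promoter shared with RAM2, a prenyltransferase subunit gene 280 bp away. Both values were below the medians of all genes listed for the same TF and condition, 2.34 for Ino2 under Et-lim and 3.01 for Hap1 under Ox,Glu-lim. The stretches are printed to show the k-mers, CCGATA at SPT23 being the Hap1 motif.
MGA2, Ino2, chrIX:415680-415720: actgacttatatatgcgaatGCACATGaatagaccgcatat
SPT23, Hap1, chrXI:402268-402308: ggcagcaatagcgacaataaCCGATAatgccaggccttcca

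UPC2 and ECM22 encode paralogous zinc cluster regulators that activate ergosterol synthesis genes when sterols are low. UPC2 lies on chromosome IV at 889751 to 892492 on the plus strand, and its end is 2543 bp from the start of ADR1. It was listed for Ino2 and Ino4 only, and all 5 entries lay in 1 place at 697 to 704 bp upstream. Ino4 on UPC2 had 2.06 under N-lim, 5.32 under Ox,Glu-lim, and 2.83 under Glu-lim, so that the value under Ox,Glu-lim was the highest, at rank 46 of 486 listed genes. Ino2 on UPC2 had 3.12 both under Ox,Glu-lim and under Glu-lim. Neither factor was listed under Et-lim, where both had their highest values on ADR1. ECM22, on chromosome XII at 600019 to 602463 on the minus strand, was listed for Hap1 only. Its log2(S/N) was 2.73 under Et-lim, 2.78 under Ox,Glu-lim, and 1.94 under Glu-lim, at 430 to 436 bp upstream. These 3 values were each below the median of the genes listed for Hap1 in that condition, and none of the events had a k-mer. The UPC2 and ECM22 stretches are printed to set an E-box site beside a repeatedly listed place with no capitals.
UPC2, Ino2 and Ino4, chrIV:889027-889074: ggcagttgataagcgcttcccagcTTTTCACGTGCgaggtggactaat
ECM22, Hap1, chrXII:602873-602919: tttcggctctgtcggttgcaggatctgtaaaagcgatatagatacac

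The member entries lay 135 to 1009 bp upstream of the start, with a median of 697 bp, against a median of 456.5 bp over all 4722 upstream entries of the tables. Within 600 bp lay 12 of the 37 (32.4%), against 68.4% of all upstream entries. The map of positions shows that every entry of ADR1, HAP4, and UPC2 was beyond 600 bp, and every entry of PIP2, HAP1, MGA2, SPT23, and ECM22 was within it. Since entries of 1 gene share a promoter, these counts describe 8 promoters rather than 37 independent positions.

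**Figure D2:**
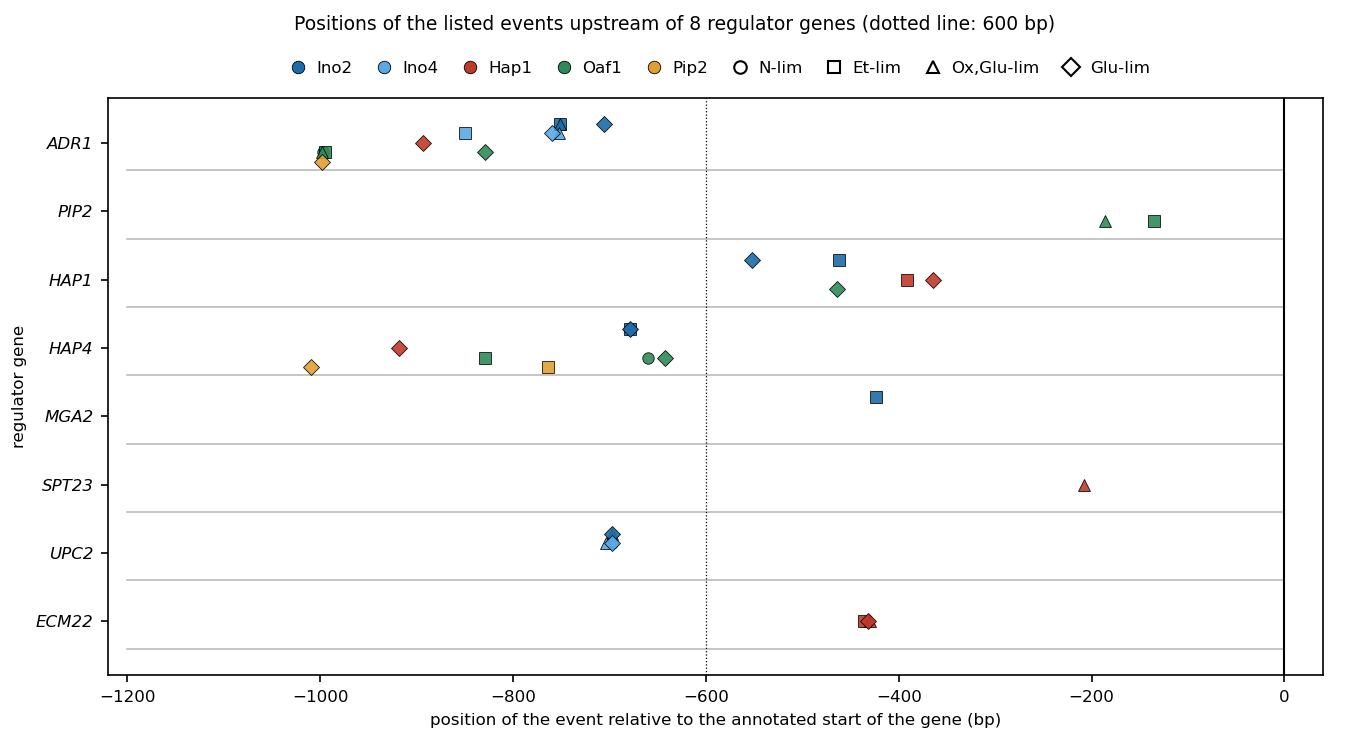
Position of each listed event relative to the annotated start of the gene, in bp, for the 8 regulator genes with an event; color gives the TF and marker shape the condition, and the dotted line is 600 bp upstream. Entries of ADR1, HAP4, and UPC2 lie between 642 and 1009 bp upstream, and the other genes have theirs between 135 and 552 bp.

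The 37 entries fell into 21 places, of which 5 held more than 1 TF and 15 held a single entry. Ino2 and Ino4 were listed on the same member in the same condition 5 times, and their events were within 20 bp in 3 of these, against 80.2% of 923 such pairs over all genes. Oaf1 and Pip2 were within 20 bp in 0 of 3 pairs on members, against 35.8% of 137 pairs over all genes. The distances of those 3 pairs were 169 bp on ADR1 under Glu-lim, 65 bp on HAP4 under Et-lim, and 367 bp on HAP4 under Glu-lim. Hap1 and Oaf1 were within 20 bp in 0 of 3 pairs, against 23.7% of 279 over all genes, and Ino2 and Oaf1 in 0 of 6, against 12.1% of 381. Only the highest event of each gene is in the tables, so that a second event at the partner's position would not be seen.

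The k-mers marked in capitals in the printed stretches were set beside the consensus motifs of each TF. These were searched as exact letters on both strands, within 20 bp of each event. The motif of Ino2 and Ino4, CACATGC, was at 0 of 10 Ino2 events and 0 of 6 Ino4 events on members, against 18.5% of all Ino2 events, 22.9% of all Ino4 events, and 0.292% of all upstream windows of the same length. With 1 mismatch allowed, a match was at 5 of 10 Ino2 events and 5 of 6 Ino4 events, against 68.1% of all Ino2 events, 72.9% of all Ino4 events, and 6.21% of upstream windows. Counting positions from 1 at the 5′ end of CACATGC, the adjacent pair of sites on ADR1 both carry C1A, the site on UPC2 carries A4G, which makes it the palindromic E-box CACGTG, and the site on MGA2 carries C7A. The only exact CACATGC within 1200 bp of a member was 779 to 785 bp upstream of PIP2, where neither Ino2 nor Ino4 was listed.

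The Hap1 motif CCGATA was at 2 of 8 Hap1 events on members (HAP1 under Glu-lim and SPT23 under Ox,Glu-lim), against 27.4% of all Hap1 events and 0.972% of upstream windows. CGGNNNTAA was at 1 of 10 Oaf1 events, that on HAP4 under Glu-lim, against 17.1% of all Oaf1 events and 0.998% of windows. The Pip2 motif CCGNNNTA was at 2 of 3 Pip2 events (ADR1 under Glu-lim and HAP4 under Et-lim), against 8.96% of all Pip2 events and 2.79% of windows. The study derived most of these motifs from events of the same libraries, and a match is a description of letters only.

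By condition, 3 members were listed for any TF under N-lim, 6 under Et-lim, 5 under Ox,Glu-lim, and 5 under Glu-lim. Over all genes the shares were 5.57% under N-lim, 13.1% under Et-lim, 11.4% under Ox,Glu-lim, and 14.4% under Glu-lim. Under N-lim the 3 entries were Oaf1 on ADR1, Oaf1 on HAP4, and Ino4 on UPC2, and no member was listed for Ino2, Hap1, or Pip2, against 1.87% of all genes for Ino2, 0.73% for Hap1, and 0.758% for Pip2. Of the 37 entries, 26 (70.3%) were from respiratory and 11 (29.7%) from fermentative conditions, close to the 66% and 34% over all entries of the tables. The heights of the member events ran from 1.18 to 6.41, and 22 of 37 were above the median of their TF and condition. The best rank was 18 of 405, that of Hap1 on HAP4 under Glu-lim.

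**Figure D3:**
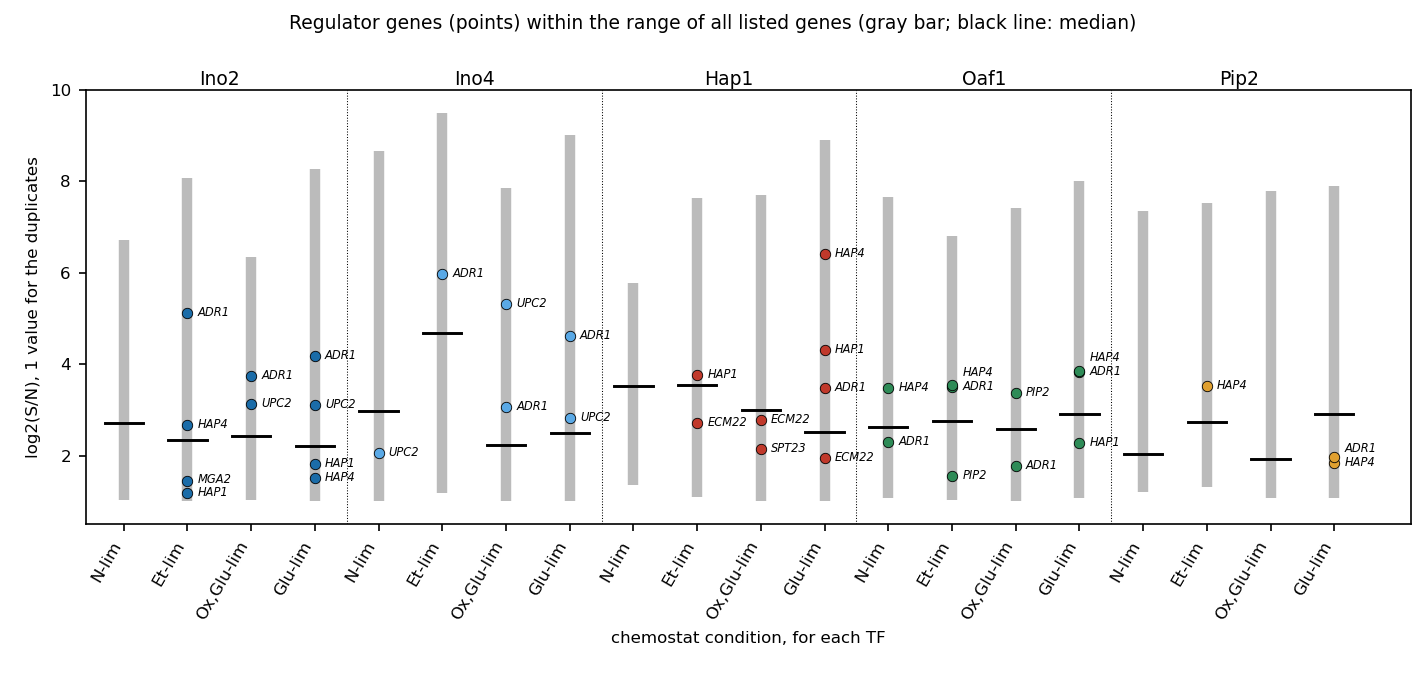
log2(S/N) of the regulator genes (points) for each TF and condition, over the range (gray bars) and median (black lines) of all genes listed there. The Hap1 event on HAP4 under Glu-lim, at 6.41, is the highest point, and the Ino2 event on HAP1 under Et-lim, at 1.18, is the lowest.

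Binding in respiratory and fermentative cultures was compared as the mean log2(S/N) of Et-lim and Glu-lim minus that of N-lim and Ox,Glu-lim, with a condition without a listed event set to the threshold of 1. The largest positive differences were those of Ino4 on ADR1, Hap1 on HAP1, Hap1 on HAP4, and Ino2 on ADR1. Ino4 on ADR1 had a mean of 5.29 in respiratory and 2.03 in fermentative conditions, a difference of 3.26, and 97% of the 674 Ino4 target genes had a smaller one. Hap1 on HAP1 had 4.04 in respiratory and 1.00 in fermentative conditions, a difference of 3.04, above that of 98.3% of 474 Hap1 target genes. Hap1 on HAP4 differed by 2.70, which rests on the single entry under Glu-lim. Ino2 on ADR1 had 4.65 in respiratory and 2.37 in fermentative conditions, a difference of 2.28, against a median of 0.70 over the 833 Ino2 target genes.

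In the other direction stood UPC2, PIP2, and SPT23. Ino4 on UPC2 had a mean of 1.92 in respiratory and 3.69 in fermentative conditions, a difference of −1.78, and 1.34% of Ino4 target genes had a lower one. Ino2 on UPC2 had 2.06 in both, and 6.48% of Ino2 target genes lay below it. Oaf1 on PIP2 had 1.28 in respiratory and 2.19 in fermentative conditions, a difference of −0.91, against a median of 0.53 for Oaf1. Hap1 on SPT23 differed by −0.57, against a median of 0.44 for Hap1. For these negative differences the highest fermentative value was in each case that of Ox,Glu-lim, where the medium also differed by Tween 80 and ergosterol, so that oxygen and these supplements cannot be told apart.

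**Figure D4:**
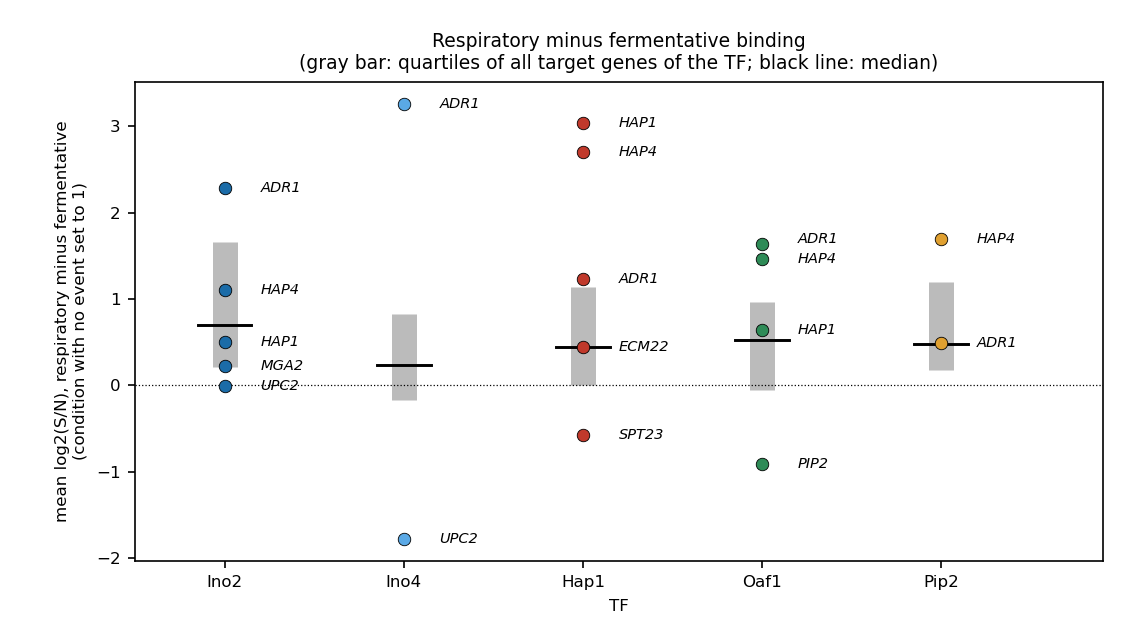
Mean log2(S/N) of respiratory minus fermentative conditions for each TF and listed regulator gene (points), with the quartiles (gray bars) and median (black lines) over all target genes of the TF. Ino4 on ADR1, at 3.26, and Ino4 on UPC2, at −1.78, are the extremes. With a condition without an event set to 0 in place of 1, Hap1 on HAP1 (4.04) stood above Ino4 on ADR1 (3.76).

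Between the respiratory conditions, where both were listed, Et-lim minus Glu-lim was positive for Ino2 on ADR1 (0.94), Ino4 on ADR1 (1.34), Ino2 on HAP4 (1.16), Pip2 on HAP4 (1.69), and Hap1 on ECM22 (0.78). It was negative for Hap1 on HAP1 (−0.56), Ino2 on HAP1 (−0.64), Oaf1 on ADR1 (−0.32), and Oaf1 on HAP4 (−0.30). On ADR1 the log2(S/N) of the Ino factors was thus higher with ethanol, and that of Oaf1 slightly higher with glucose. The whole Ino4 list was higher under Et-lim, with a median of 4.68 against 2.50 under Glu-lim. Counted from the top, Ino4 on ADR1 ranked at 24.7% of listed genes under Et-lim and 17.8% under Glu-lim. Ino2 on ADR1 ranked at 9.24% and 15.4%, and Hap1 on ECM22 at 75.7% and 64.9%. The compared events on ADR1 lay 45 bp (Ino2), 90 bp (Ino4), and 166 bp (Oaf1) apart.

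For the members with at least 6 entries, the genes with the most similar pattern were sought by Pearson r over the 20 TF and condition values. Those not listed were set to the threshold of 1. For ADR1, among 1369 genes, these were CUP9 (r = 0.90), the gene of a homeodomain repressor, YGR067C (r = 0.90), and YGR068W-A (r = 0.90), the last pair sharing all values. For HAP4, among 1370 genes, they were SED1 (r = 0.85), a cell wall glycoprotein gene, MGA1 (r = 0.79), and FMP43 (r = 0.77), a mitochondrial pyruvate carrier subunit gene. Of the 20 values, 12 were listed for ADR1, 8 for CUP9, and 11 for YGR067C. For HAP4 8 were listed, against 6 for SED1, 9 for MGA1, and 4 for FMP43, so that shared absence also enters r. The 20 values share libraries within each TF and condition, and r is given as a description.

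Among 21 other regulators of these processes, 12 were listed for at least 1 TF, against 19.2% of all genes. Ino2 was listed on 10 (11.7% of all genes), Ino4 on 10 (9.46%), Hap1 on 5 (6.65%), Oaf1 on 4 (6.34%), and Pip2 on 1 (3.3%), the last close to the share over all genes. The phospholipid regulators INO2, INO4, OPI1, and UME6 were all listed, and for Ino2 and Ino4 only. The CCAAT-binding partners of Hap4, HAP2, HAP3, and HAP5, were listed for no TF, in contrast to the 8 entries of HAP4. The other regulators without an entry were CAT8, RDS2, SNF1, TUP1, RTG1, and RTG3. Those listed for at least 3 TFs were all in the oxygen and sterol list. ROX1, the heme-dependent repressor of hypoxic genes, was listed for all 5 TFs and reached 7.69 for Hap1 under Ox,Glu-lim. MOT3, a repressor of hypoxic and sterol genes, was listed for 4 and reached 7.68 for Ino4 under Glu-lim. SUT1, a regulator of sterol uptake, reached 5.49 for Ino4 under Ox,Glu-lim, and CYC8, the corepressor subunit, reached 3.97 for Hap1 under Ox,Glu-lim. ROX1 and MOT3 thus had higher events than any of the members.

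Known targets of the members' products were also counted, 31 genes in 6 lists that overlap. The shares of all genes to set beside these counts are 11.7% for Ino2, 9.46% for Ino4, 6.65% for Hap1, 6.34% for Oaf1, and 3.3% for Pip2. Of 7 Adr1 targets, Oaf1 was listed on 6 and Pip2 on 4, and ADH2 was the gene without an entry for any TF. The 4 listed for Pip2 were all in the list of Oaf1 and Pip2 targets too, so that the counts are not separate. Oaf1 on GUT1 had 1.10 under Ox,Glu-lim, near the threshold. Of 8 Oaf1 and Pip2 targets, 6 were listed for Oaf1 and 6 for Pip2, and none for Ino2, Ino4, or Hap1, whereas PIP2 itself had Oaf1 alone and OAF1 neither. Hap1 was listed on all 9 of its known targets, CTT1, CYB2, CYC1, and CYC7 among them. Ino2 and Ino4 were each listed on 7 of these 9, and Oaf1 and Pip2 on 3 each. Of 7 Hap4 targets, Hap1 was listed on 4, with COX4 at only 1.20, near the threshold. Ino2 and Ino4 were listed on 2 of the 7 each, Oaf1 on 1, and Pip2 on 0. Some of these Hap4 targets, CYC1 among them, are also in the Hap1 list. OLE1, the target of Mga2 and Spt23, was listed for all 5 TFs in 16 of 20 combinations and reached 7.42 for Oaf1 under Ox,Glu-lim, against a single entry for MGA2 and SPT23 each. Of 6 Upc2 and Ecm22 targets, Ino2, Ino4, and Hap1 were each listed on 5, Oaf1 on 4, and Pip2 on 1.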

How the data were processed

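The submitters' processing notes name Bowtie2, SAMtools, and bedtools and build R64; versions are not given in the sources used here. By the study's methods, GEM called the events and served to compare duplicates, and events were assigned to genes within 1200 bp; the tables hold 1 value for both duplicates. The log2 values are those deposited by the authors, who divided signal by noise and kept log2(S/N) above 1; positions, k-mers, and distances are other values deposited by the authors. Depth is unknown, and no p values are given.

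From the 5 tables, 100 columns were used; 1 line in each names no gene and was left out. For Pip2, 7002 lines end early, and their missing cells were read as empty; 185 of its 332 entries were matched upstream of a start, against 1625 of 1736 for Ino2; 2 of 52 genes listed for Pip2 in both Et-lim and Glu-lim have the same event and value in both, and 0 of these are members. Distances of all 37 member entries matched gene starts of the R64 reference within 1 bp, and all 24 member k-mers lay within 3 bp of their events. CEN.PK sequence may differ from this reference. Counting and matching were done in Python 3.11.15 with NumPy 2.4.6 and matplotlib 3.10.9 and tested on simulated data.

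Members and lists were chosen with earlier results of these data known. Members, genes sharing their events, the 3 genes most similar to each member with at least 6 entries, other regulators listed for at least 3 TFs, and up to 4 targets a list are named; other names and positions were chosen after their values were seen.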

Additional observations from a re-analysis of the deposited data

How the results depend on the processing

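No paired analysis was possible because the tables hold 1 value for both duplicates and the columns carry no replicate numbers. Leaving out each replicate could not be run for the same reason. With log2(S/N) above 1.5, MGA2 was listed for 0 TFs. Above 2, Ino2 was listed on 3 members (6.86% of all genes), Pip2 on 1 (1.89%), and MGA2 for 0 TFs. ADR1 was then listed for 4 TFs, without Pip2. With distances of at most 600 bp, Ino2 was listed on 2 members (8.41% of all genes), Ino4 on 0 (6.6%), Hap1 on 3 (4.67%), Oaf1 on 2 (4.24%), and Pip2 on 0 (2.22%). At that distance 12 entries were left, ADR1, HAP4, and UPC2 each had 0 TFs, and 5 members had any TF. Counting an event for its nearest listed gene only left Pip2 on 1 member (2.19% of all genes) and ADR1 with 4 TFs. Within 10 bp, CGGNNNTAA was at 0 of 10 Oaf1 events (8.54% of all Oaf1 events) and CCGNNNTA at 1 of 3 Pip2 events (3.98%). Within 50 bp, CGGNNNTAA was at 4 of 10 Oaf1 events (28.1% of all Oaf1 events). By Euclidean distance, 1 of the 3 genes most similar to ADR1 was shared.

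Setting a condition without an event to 0 gave respiratory minus fermentative differences on ADR1 of 2.78 (Ino2), 3.76 (Ino4), 1.74 (Hap1), and 0.99 (Pip2). On HAP1 they were 1.498 (Ino2), 4.04 (Hap1), and 1.14 (Oaf1), and on HAP4 2.10 (Ino2), 3.20 (Hap1), 1.97 (Oaf1), and 2.69 (Pip2). On MGA2 the difference was 0.72 (Ino2), on SPT23 −1.07 (Hap1), on UPC2 −2.28 (Ino4), and on ECM22 0.94 (Hap1). Single pairs of conditions give other quantities than these differences. Et-lim and Glu-lim are both respiratory, so that their difference does not bear on the respiratory minus fermentative values. Et-lim minus Glu-lim was 0.94 (Ino2) and 1.34 (Ino4) on ADR1, 1.16 (Ino2) and 1.69 (Pip2) on HAP4, and 0.78 (Hap1) on ECM22. It was −0.32 (Oaf1) on ADR1, −0.64 (Ino2) and −0.56 (Hap1) on HAP1, and −0.30 (Oaf1) on HAP4. N-lim minus Glu-lim, which is fermentative minus respiratory, was −1.53 (Oaf1) on ADR1, −0.38 (Oaf1) on HAP4, and −0.77 (Ino4) on UPC2. Of the counts for single TFs and conditions, 80 stayed within 1.5 times of their main value and 20 did not. The remaining 83 values were equal to their main value or within 1.5 times of it.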
